A study of Rattus norvegicus with 9 samples.

Results

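The tumour necrosis factor (TNF) ligand and receptor superfamily was followed at the RNA level in rat liver. Members were the protein-coding genes whose symbol begins with Tnfsf or Tnfrsf, together with Tnf, Lta, Ltb, Ltbr, Cd40, Cd40lg and Cd27. The rule gave 35 of the 32883 genes in the table, of which 15 encode ligands and 20 encode receptors, and it used no measured value. They lie on 13 chromosomes, and 18 of them have another member within 200000 bases.

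TNF superfamily ligands are mostly trimeric membrane proteins that can be released by proteases, and they signal by clustering receptors on the neighbouring cell. Receptors with a cytoplasmic death domain can recruit adaptors that start apoptosis or necroptosis, whereas the others bind TRAF proteins and mainly activate NF-κB and MAP kinases. In the liver, TNF from Kupffer cells is a classical mediator of endotoxin injury, TRAIL (Tnfsf10) and Fas ligand can kill hepatocytes, and TWEAK (Tnfsf12) acts through Fn14 (Tnfrsf12a) on progenitor and ductular cells.

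Livers came from male Sprague-Dawley rats aged 8 to 11 weeks, and bulk RNA-seq was available for 3 groups of 3. The normal group had no treatment named in the labels. Rats of the empty and UTOpiA groups both carried a bile duct ligation of 21 days and received 0.25 mg/kg lipopolysaccharide (LPS) intraperitoneally, a model of acute-on-chronic liver failure (ACLF). Both also underwent extracorporeal whole-blood circulation that began 1 h after LPS and lasted 2 h. The empty circuit held neither cells nor the apheresis beads, whereas the UTOpiA circuit held granulocyte and monocyte adsorbing beads and encapsulated hepatocyte-like aggregates from human iPSCs. Livers were taken 24 h after LPS from rats still alive, so both ACLF groups describe survivors. No ACLF group without a circuit was analysed here, so ligation, LPS and circulation cannot be told apart in the comparisons with normal.

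Library totals ranged from 14241172 to 17321677 assigned counts. The empty library 2 stood apart from the other libraries of its group, with a chi-square per degree of freedom of 226 against empty 1 and 176 against empty 3, whereas empty 1 and 3 gave 46.8. The hepatocyte marker list summed to 148901 to 161611 TPM (a level that is corrected for transcript length and sums to the same total in every library) in normal livers, 32165 to 58158 in empty livers and 37323 to 58358 in UTOpiA livers. Alb alone gave 114722 to 127172 TPM of it in normal and 12840 to 33608 in ACLF livers, and the rest summed to 33117 to 35657, 19325 to 24550 and 23663 to 28422 TPM. The list did not move as one, since Pck1 was called higher in both ACLF groups while Serpina1, Asgr1 and Tat were not called. In bulk tissue, fewer cells of a type and less RNA per cell cannot be told apart.

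Levels below are in TPM, given in the order of libraries 1, 2 and 3. Differences are log2 fold changes from edgeR's quasi-likelihood fit over all 9 libraries, ± their standard errors, with p-values adjusted by Benjamini-Hochberg over 14089 genes. A gene was called when its adjusted p was under 0.05 and its fold change above 2. The low-count filter kept 22 members, 7 ligands and 15 receptors, and left out 13. P-values measure the spread between these libraries, and the labels do not say whether they were prepared apart.

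Promoters are shown for the members with the largest fitted increases among those with more than 3 counts in a normal library, Tnfrsf12a and Tnfrsf21, and for both called members whose promoter held the 10-base NF-κB consensus, Ltb and Tnfrsf8. Each sequence is the 250 bases before the RefSeq start on assembly GRCr8, written 5′ to 3′ on the gene's strand. They are on the minus strand at chr10:13213649-13213898, chr9:25451324-25451573, chr20:3634055-3634304 and chr5:162451621-162451870, and capitals mark NF-κB consensus matches on either strand.
Tnfrsf12a: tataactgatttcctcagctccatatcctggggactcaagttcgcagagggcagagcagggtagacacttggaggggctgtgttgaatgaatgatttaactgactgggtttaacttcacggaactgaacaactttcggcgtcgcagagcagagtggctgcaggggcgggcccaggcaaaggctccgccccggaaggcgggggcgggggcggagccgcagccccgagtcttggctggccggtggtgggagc
Tnfrsf21: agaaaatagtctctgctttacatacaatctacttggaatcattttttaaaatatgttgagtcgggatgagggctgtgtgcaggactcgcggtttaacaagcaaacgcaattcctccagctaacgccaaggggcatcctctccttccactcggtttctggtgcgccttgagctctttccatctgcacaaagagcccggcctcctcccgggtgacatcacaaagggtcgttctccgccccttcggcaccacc
Ltb: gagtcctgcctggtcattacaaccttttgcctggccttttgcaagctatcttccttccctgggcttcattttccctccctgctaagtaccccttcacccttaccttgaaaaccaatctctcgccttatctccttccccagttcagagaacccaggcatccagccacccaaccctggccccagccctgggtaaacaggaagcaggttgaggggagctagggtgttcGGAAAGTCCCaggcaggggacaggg
Tnfrsf8: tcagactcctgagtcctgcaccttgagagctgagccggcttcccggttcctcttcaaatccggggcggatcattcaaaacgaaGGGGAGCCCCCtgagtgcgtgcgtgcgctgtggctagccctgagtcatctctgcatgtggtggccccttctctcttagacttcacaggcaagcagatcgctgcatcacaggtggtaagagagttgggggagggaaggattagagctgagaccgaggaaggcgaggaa

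RefSeq promoter entries were found for 26 members. In windows of 300 bases, from 250 before to 50 after the start, the NF-κB consensus was present in 4 of these 26 (15.4%), namely Lta, Ltb, Tnfrsf8 and Tnfsf14, and in 7.6% of all 27457 promoters. The Ltb match began 25 bases before the start, and the Tnfrsf8 matches, 2 that overlap, began 167 and 166 bases before it. The AP-1 motif TGANTCA was present in 2 members (7.69%), Tnfrsf1b and Tnfrsf8, and in 7.33% of all promoters. TATAAA was present in 6 members (23.1%) and in 14.3% of all promoters, and Tnf and Lta were among the 6. Both strands were searched, and a match is a description of letters only.

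In normal liver, 2 receptors dominated the superfamily's RNA. Tnfrsf1a, the main TNF receptor with a death domain, and Ltbr, the lymphotoxin-β receptor, together made up 77.8 to 79.6% of the summed receptor TPM. Among ligands, Tnfsf10, Tnfsf12 and Tnfsf13 together held 96.8 to 97.8% of the summed ligand TPM. In the ACLF livers, Tnfrsf1a and Ltbr still ranked first and second by mean TPM, but their joint share was 53.3 to 64.3% in the empty group and 51.1 to 64.8% in the UTOpiA group. Tnfrsf12a took 1.33 to 1.98% of receptor TPM in normal, 12.4 to 29.7% in empty and 12.2 to 23.5% in UTOpiA livers.

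**Figure D1:**
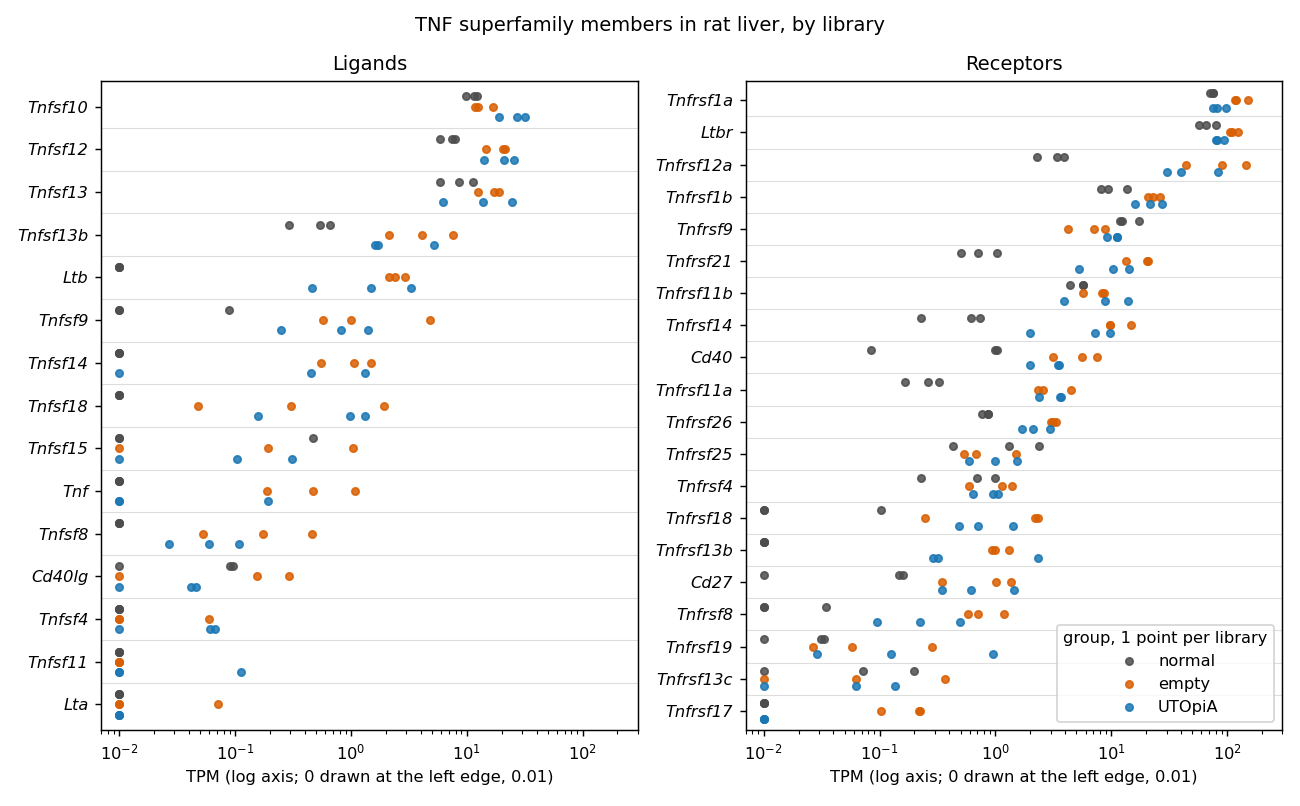
TPM of all 35 members on a log axis, with 1 point per library coloured by group and ligands and receptors in separate panels; a value of 0 is drawn at 0.01. Tnfrsf1a and Ltbr rank first and second by group mean, although Tnfrsf12a exceeds Ltbr in empty 2 and UTOpiA 2, and Tnfrsf12a moves from 2.29 to 3.89 TPM in normal livers to 30.5 TPM or more in every ACLF library.

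Against normal liver, 11 of the 22 members in the fit were called higher in the empty group and 1 lower. Over all genes tested in that comparison, 20.7% were called higher and 11.1% lower. In the UTOpiA group 11 members were called higher and 0 lower, against 18.2% and 6.81% of all genes. Both comparisons share the normal livers. DESeq2 also called 0 members lower in the UTOpiA group.

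These counts need reading with the filter and the scaling. Only 11 of the 22 members reached the count filter in the 3 normal libraries alone, and the other 11 (Ltb, Tnfrsf14, Tnfsf13b, Tnfrsf11a, Tnfrsf8, Cd40, Tnfrsf25, Tnfrsf18, Tnfsf18, Cd27 and Tnfsf9) needed ACLF libraries to enter the fit. Of those that passed on normal livers alone, 3 were called higher in empty livers (Tnfrsf12a, Tnfrsf21 and Tnfrsf26) and 4 in UTOpiA livers (the same 3 and Tnfsf12). Over the 11667 genes that passed in that way, 12.7% and 10.7% were called higher. The remaining 8 and 7 calls concern members that passed with the help of the groups in which they were high. For 6 of the 11 (Ltb, Tnfrsf8, Tnfrsf18, Tnfsf18, Cd27 and Tnfsf9) every normal library held at most 3 counts. Scaling by library totals alone, an alternative chosen after seeing the data, moved the median of all genes by 0.55 in empty against normal and by 0.37 in UTOpiA against normal. It also moved the higher share of all called genes from 65.1 to 86.8% and from 72.8 to 87.6%. It called 15 and 16 members higher, beside 4477 and 3437 of all 14089 genes. TPM carries a similar shift, so values in TPM can lie apart between groups where the fit finds no difference.

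Among ligands of the classical TNF group, Tnf itself (ENSRNOG00000000837) was near the detection limit. It had 0, 0 and 0 counts in normal, 8, 17 and 3 in empty, and 0, 0 and 3 in UTOpiA livers. Every empty library lay above every normal one, whereas UTOpiA overlapped both groups. Tnf did not pass the filter, and the two-sided exact permutation test of its TPM gave p = 0.1 for empty against normal, the smallest that 3 against 3 allows, p = 1.0 for UTOpiA against normal and p = 0.2 for UTOpiA against empty. Mean CPM (counts scaled to TMM-adjusted library size) in empty livers was 1.96 times a floor of 3 counts per normal library. Without empty 2 it was 1.12 times that floor. Such ratios to the floor, here and below, bound the normal level only and leave out counting error in the ACLF mean. The UTOpiA mean was under that floor, so a difference from normal was not detectable at this depth. For UTOpiA against empty, edgeR without the count filter gave −2.73 ± 1.33 (adjusted p = 0.662). There limma on log2(TPM + 1) without its filter gave −0.54 ± 0.18 (adjusted p = 0.511).

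Ltb, the lymphotoxin-β subunit that anchors lymphotoxin in the membrane, rose in both ACLF groups. Its counts were 0, 0 and 0 in normal, 25, 32 and 27 in empty, and 15, 36 and 5 in UTOpiA livers. The ACLF groups lay apart from normal and overlapped each other. Mean Ltb was 5.74 times the floor in empty and 4.22 times it in UTOpiA livers, with edgeR adjusted p against normal of 0.00207 and 0.00414. Without UTOpiA 2 the latter ratio was 2.70. Lta, its secreted partner, had 1 count over all 9 libraries.

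Tnfsf14 (LIGHT), a ligand of Ltbr and Tnfrsf14, had 0 counts in normal, 4, 7 and 10 in empty and 8, 3 and 0 in UTOpiA livers. It was below the filter, and its empty mean was 1.42 times the floor. The genes Lta, Tnf and Ltb lie side by side on chromosome 20, with gaps of 1151 and 2887 bases, inside the annotated spans of the MHC class I genes RT1-CE7, RT1-CE4 and RT1-CE1. The paper's methods count uniquely mapped reads. How reads over overlapping genes were assigned is not given in the sources used here, so the counts of Lta, Tnf and Ltb are uncertain.

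Tnfsf10 (TRAIL, ENSRNOG00000013269), a death ligand, was the most abundant ligand by mean TPM in normal and UTOpiA livers. Its TPM was 9.85, 12.1 and 11.6 in normal, 12.6, 11.8 and 16.8 in empty, and 31.9, 27.3 and 18.8 in UTOpiA livers. The UTOpiA libraries lay above all others, and the empty and normal libraries overlapped. The fitted difference was −0.23 ± 0.17 for empty against normal (edgeR adjusted p = 0.275), where its sign turned to 0.33 with library totals alone, and 0.88 ± 0.17 for UTOpiA against normal (adjusted p = 0.00332), under the fold threshold.

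Tnfsf12 (TWEAK, ENSRNOG00000045670) was 7.47, 5.89 and 7.85 TPM in normal, 20.7, 14.8 and 21.3 in empty, and 25.5, 20.8 and 13.97 in UTOpiA livers. Both ACLF groups lay above normal and overlapped each other. It was called higher in UTOpiA against normal (log2 fold change 1.17 ± 0.22, adjusted p = 0.00333) and stayed under the fold threshold in empty against normal (0.90 ± 0.22, adjusted p = 0.00839). Without UTOpiA replicate 1 the former was 0.96, also under the threshold. Tnfsf11 (RANKL), the osteoclast differentiation ligand, had 1 count over all libraries, and Tnfsf15 had 0 to 10 counts per library with overlapping groups.

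Both ligands for B cell survival were detected in every library. Tnfsf13b (BAFF) was 0.29, 0.654 and 0.538 TPM in normal, 4.09, 2.11 and 7.64 in empty, and 1.71, 5.22 and 1.61 in UTOpiA livers. Both ACLF groups lay above normal, with log2 fold changes of 2.66 ± 0.58 (adjusted p = 0.00455) and 2.11 ± 0.58 (adjusted p = 0.0172). The UTOpiA call held in 11 of 15 alternative fits. Among others, it was lost without UTOpiA replicate 2 (1.56) and without normal replicate 1 (1.85). Tnfsf13 (APRIL) was 5.86 to 11.4 TPM in normal, 12.5 to 19.0 in empty and 6.23 to 24.5 in UTOpiA livers, and passed no test (adjusted p = 0.380 and 0.420).

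Among ligands of the costimulatory group, Tnfsf9 (4-1BB ligand) had 0, 0 and 1 counts in normal, 13, 58 and 7 in empty, and 9, 17 and 3 in UTOpiA livers. Both ACLF groups lay above normal. Its pooled count ratio to normal was 47.8 in empty livers (95% interval 8.33 to 1912, counting error only) and 21.5 in UTOpiA livers (3.57 to 880), with edgeR adjusted p of 0.0098 and 0.0496. Empty 2 held 58 of the 78 empty counts, and without it the ratio was 18.0 (2.87 to 744). Leaving out any 1 of 5 libraries (each normal library, UTOpiA 1 or UTOpiA 2) ended the call in UTOpiA livers, with fitted values from 3.53 to 6.24. Tnfsf18 had 0 counts in normal livers and 1 to 37 per ACLF library (adjusted p = 0.0550 and 0.0552). It was called in 4 and 3 of 12 alternative fits. Tnfsf8, Cd40lg and Tnfsf4 had at most 17, 7 and 1 counts in any library and did not enter the fit.

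Among death domain receptors, Tnfrsf1a (ENSRNOG00000031312) was the most abundant member in all 3 groups by mean TPM. It was 75.9, 70.9 and 76.2 TPM in normal, 120, 151 and 117 in empty, and 75.9, 97.9 and 82.3 in UTOpiA livers. In TPM the empty libraries lay above the others, and UTOpiA overlapped normal. In the fit, which adjusts for the composition of each library, the difference from normal was 0.29 ± 0.18 in empty (adjusted p = 0.211) and −0.11 ± 0.18 in UTOpiA livers (adjusted p = 0.650). With library totals alone, the latter turned to 0.24.

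Tnfrsf21 (DR6, ENSRNOG00000011517) had one of the largest increases, and its promoter, printed above, held no NF-κB consensus match. Its TPM was 1.03, 0.703 and 0.507 in normal, 20.8, 20.3 and 13.4 in empty, and 5.23, 10.4 and 14.2 in UTOpiA livers. Every ACLF library was above every normal one. The log2 fold changes were 4.10 ± 0.51 (adjusted p = 0.000395) and 3.49 ± 0.50 (adjusted p = 0.00111). Tnfrsf25 (DR3), a receptor of T cells, was 0.428 to 2.39 TPM in normal and 0.534 to 1.53 in ACLF livers, with overlapping groups and no call.

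Tnfrsf12a (Fn14, ENSRNOG00000003546), the TWEAK receptor, had the highest fitted increase among members with more than 3 counts in a normal library. Its TPM was 3.89, 3.42 and 2.29 in normal, 43.8, 146 and 90.2 in empty, and 39.8, 82.7 and 30.5 in UTOpiA livers. All ACLF libraries lay far above normal, and the ACLF groups overlapped. The log2 fold changes were 4.34 ± 0.49 in empty (adjusted p = 0.000259) and 3.61 ± 0.48 in UTOpiA livers (adjusted p = 0.00079). The receptor's TPM was 0.292 to 0.581 times that of its ligand Tnfsf12 in normal, 2.12 to 9.92 times in empty and 1.56 to 3.98 times in UTOpiA livers.

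Tnfrsf14 (HVEM), which binds LIGHT and the inhibitory receptor BTLA, was 0.729, 0.229 and 0.621 TPM in normal, 9.76, 9.82 and 14.8 in empty, and 7.29, 9.75 and 2.01 in UTOpiA livers. The 3 groups did not overlap in TPM, and the closest ACLF values were 9.75 and 9.76. It rose by 3.90 ± 0.52 (adjusted p = 0.000457) and 3.17 ± 0.52 (adjusted p = 0.00171) on the log2 scale.

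Tnfrsf11a (RANK, the RANKL receptor) was 0.262, 0.164 and 0.324 TPM in normal, 2.35, 2.58 and 4.46 in empty, and 3.66, 3.60 and 2.39 in UTOpiA livers. Its log2 fold changes were 3.08 ± 0.37 (adjusted p = 0.000252) and 3.32 ± 0.37 (adjusted p = 0.000287). Both ACLF groups lay above normal at similar levels, while its ligand Tnfsf11 was at 0 counts in all but 1 library. Tnfrsf11b (osteoprotegerin), the soluble decoy for RANKL and TRAIL, was 4.44, 5.72 and 5.68 TPM in normal, 8.61, 8.35 and 5.72 in empty, and 8.86, 13.9 and 3.93 in UTOpiA livers, with fitted differences of 0.01 ± 0.32 (adjusted p = 0.977) and 0.35 ± 0.31 (adjusted p = 0.402).

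Cd40, the receptor of antigen-presenting cells for CD40 ligand, was 0.998, 1.02 and 0.0842 TPM in normal, 3.13, 7.56 and 5.64 in empty, and 3.54, 3.46 and 1.97 in UTOpiA livers. Both ACLF groups lay above normal. It was called in empty livers (2.42 ± 0.62, adjusted p = 0.0104) and missed the threshold in UTOpiA livers (1.74 ± 0.63, adjusted p = 0.0511). In UTOpiA livers 6 of 15 alternative fits called it, DESeq2 among them (adjusted p = 0.0116). Its ligand Cd40lg had 0 to 7 counts per library.

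The other TNF receptor, Tnfrsf1b, which lacks a death domain, was 13.6, 8.21 and 9.38 TPM in normal, 23.1, 20.9 and 26.4 in empty, and 21.4, 27.3 and 16.2 in UTOpiA livers. Both ACLF groups lay above normal in TPM. Its differences of 0.65 ± 0.19 (adjusted p = 0.017) and 0.71 ± 0.19 (adjusted p = 0.0148) passed the p threshold and stayed under the fold threshold. The TPM ratio of Tnfrsf1a to Tnfrsf1b was 5.60 to 8.63 in normal, 4.45 to 7.24 in empty and 3.55 to 5.09 in UTOpiA livers.

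Ltbr, the receptor for membrane lymphotoxin and LIGHT, was 80.5, 66.1 and 57.6 TPM in normal, 107, 111 and 124 in empty, and 93.3, 82.3 and 80.3 in UTOpiA livers. The empty libraries lay above the others in TPM, and UTOpiA overlapped normal. The fitted differences were 0.22 ± 0.18 (adjusted p = 0.334) and 0.03 ± 0.18 (adjusted p = 0.922). Tnfrsf19 was below the filter, with 0 or 1 counts in normal and 1 to 33 in ACLF libraries.

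Among costimulatory receptors of lymphocytes, Tnfrsf9 (4-1BB, ENSRNOG00000036942) was the member called lower. Its TPM was 11.8, 12.4 and 17.4 in normal, 7.15, 4.25 and 8.77 in empty, and 9.25, 11.3 and 11.1 in UTOpiA livers. The groups did not overlap, with normal highest and empty lowest. The log2 fold change was −1.58 ± 0.29 in empty (adjusted p = 0.00192) and −0.70 ± 0.28 in UTOpiA livers (adjusted p = 0.0738). Its ligand Tnfsf9 moved the other way, as given above. On the log2(TPM + 1) scale with limma, the difference in empty livers was −0.98 and was not called.

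Tnfrsf8 (CD30), whose promoter is printed above, had 0, 1 and 0 counts in normal, 24, 18 and 38 in empty, and 14, 7 and 3 in UTOpiA livers. Its pooled count ratio to normal was 49.0 in empty (95% interval 8.55 to 1960, counting error only) and 17.8 in UTOpiA livers (2.91 to 733), with adjusted p of 0.00206 and 0.0180. Without UTOpiA 1 the latter ratio was 10.9 (1.55 to 472). Tnfrsf18 (GITR) had 1, 0 and 0 counts in normal, 3, 26 and 25 in empty, and 5, 16 and 8 in UTOpiA livers, with ratios of 33.1 (5.69 to 1331) and 21.5 (3.57 to 880) and adjusted p of 0.0109 and 0.0309. The ACLF libraries of both genes lay above normal. The UTOpiA call of Tnfrsf8 was lost in 3 of the fits that left out a library (UTOpiA 1, normal 1 or normal 3; 3.09 to 3.38) and that of Tnfrsf18 in 5 of them (all but UTOpiA 1; 3.55 to 6.28).

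Cd27 had 2, 0 and 2 counts in normal and 5 to 20 in ACLF libraries and missed the threshold (adjusted p = 0.0531 and 0.0603). It was called in 4 of 12 alternative fits in each comparison. Tnfrsf4 (OX40) had 2 to 13 counts per library and was not tested. Tnfrsf26, a receptor of the family on chromosome 1, was 0.768, 0.867 and 0.856 TPM in normal, 3.04, 3.16 and 3.36 in empty, and 2.10, 2.98 and 1.69 in UTOpiA livers. Its groups did not overlap, and its log2 fold changes were 1.41 ± 0.26 (adjusted p = 0.00195) and 1.09 ± 0.26 (adjusted p = 0.00954), the latter falling to 1.00 and out of the call without UTOpiA replicate 2.

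The B cell survival receptors were all below the filter. Tnfrsf13b (TACI) had 0 counts in normal, 7, 9 and 7 in empty, and 2, 16 and 2 in UTOpiA livers. The empty and UTOpiA means were 1.57 and 1.45 times the floor. Without UTOpiA 2 the UTOpiA mean was under the floor and no bound remained. Tnfrsf13c (the BAFF receptor) had 0 to 6 and Tnfrsf17 (BCMA) 0 to 2 counts per library. Of 6 tested B and plasma cell markers, 0 were called in either comparison with normal by edgeR, while 1 and 2 had an unadjusted p under 0.05. Xbp1, a plasma cell factor also used by other secretory cells, passed the p threshold in both (adjusted p = 0.0336 and 0.0460) under the fold threshold. The list summed to 154 to 234 TPM in normal, 360 to 545 in empty and 255 to 478 in UTOpiA livers, both above normal on the TPM scale.

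**Figure D2:**
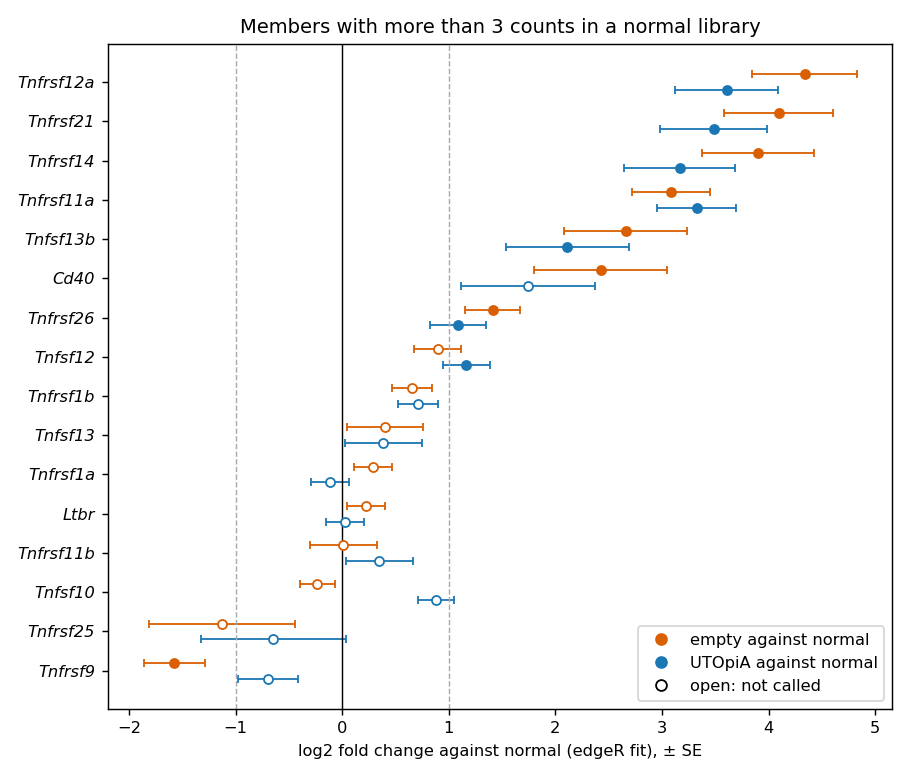
Fitted log2 fold changes against normal (x axis) with standard errors for the 16 tested members with more than 3 counts in a normal library, for empty and UTOpiA livers; filled points were called and dashed lines mark a fold of 2. Tnfrsf12a, Tnfrsf21, Tnfrsf14 and Tnfrsf11a lie above 3 in both comparisons, and Tnfrsf9 is the lowest point in empty against normal.

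Between UTOpiA and empty livers, which asks what the loaded circuit changed, 0 members were called in either direction by edgeR, as were 0.0% of all genes higher and 0.0% lower. An unadjusted p under 0.05 was found for 3 of the 22 members, Tnfsf10, Tnfrsf9 and Tnfrsf8, and for 10.3% of all genes. The members' median log2 fold change was −0.26, or −0.02 over the 11 that passed the filter on normal livers alone, and that of all genes was 0.00. DESeq2 called 1 member, Tnfsf10, and 0.376% of all genes higher, and 0 members and 0.504% of all genes lower.

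Tnfsf10 had the fourth smallest p of all 14089 genes, with a log2 fold change of 1.11 ± 0.17. As listed above, all 3 UTOpiA libraries (18.8 to 31.9 TPM) exceeded all 3 empty libraries (11.8 to 16.8 TPM). Its edgeR adjusted p of 0.170 was the smallest in the comparison and was shared by 8 genes. DESeq2 gave 1.09 ± 0.20 with an adjusted p of 6.45e-05. Over 21 alternatives the value ranged from 0.86 to 1.22 and the adjusted p from 5.98e-05 to 0.610, and it was called in 7. By edgeR it was called without UTOpiA replicate 2 (adjusted p = 0.0384), and by DESeq2 it fell under the fold threshold without UTOpiA replicate 1 (0.93).

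Tnfrsf9 differed by 0.88 ± 0.28 (unadjusted p = 0.0121, edgeR adjusted p = 0.395), its UTOpiA libraries lying between those of the empty and normal groups. Tnfrsf8 differed by −1.42 ± 0.63 (unadjusted p = 0.0474, edgeR adjusted p = 0.478). Neither was called under any of their alternatives. The decoy Tnfrsf11b, which binds TRAIL, differed by 0.34 ± 0.31 (adjusted p = 0.743), and the ratio of Tnfsf10 to Tnfrsf11b in TPM was 2.04 to 2.22 in normal, 1.42 to 2.93 in empty and 1.96 to 4.79 in UTOpiA livers.

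Of the 8 receptors called higher in empty against normal, which shares the empty livers, 0 passed the adjusted threshold by edgeR or were called by DESeq2 between UTOpiA and empty, and 1, Tnfrsf8, had an unadjusted p under 0.05. Besides Tnfrsf8, the fitted differences were −0.73 ± 0.40 for Tnfrsf12a (adjusted p = 0.571), −0.61 ± 0.43 for Tnfrsf21 (adjusted p = 0.656), −0.74 ± 0.43 for Tnfrsf14 (adjusted p = 0.589), −0.68 ± 0.56 for Cd40 (adjusted p = 0.707), −0.64 ± 0.77 for Tnfrsf18 (adjusted p = 0.801) and −0.32 ± 0.24 for Tnfrsf26 (adjusted p = 0.683). Tnfrsf11a went the other way, at 0.24 ± 0.30 (adjusted p = 0.813). For Tnfrsf1a, which was not called in either comparison with normal, the difference was −0.40 ± 0.18 (unadjusted p = 0.0515, edgeR adjusted p = 0.486) and for Ltbr −0.20 ± 0.18 (adjusted p = 0.741).

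In TPM, UTOpiA and empty libraries did not overlap for 2 tested members that were higher (Tnfsf10 and Tnfrsf9) and 5 that were lower (Tnfrsf14, Tnfrsf8, Ltbr, Tnfrsf1a and Tnfrsf26), against 2.43% and 8.62% of all genes. In CPM after TMM scaling, which centres the bulk of genes, the same was true of 2 and 3 members, against 6.15% and 5.97% of all genes. Tnfrsf1a and Ltbr no longer separated there.

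**Figure D3:**
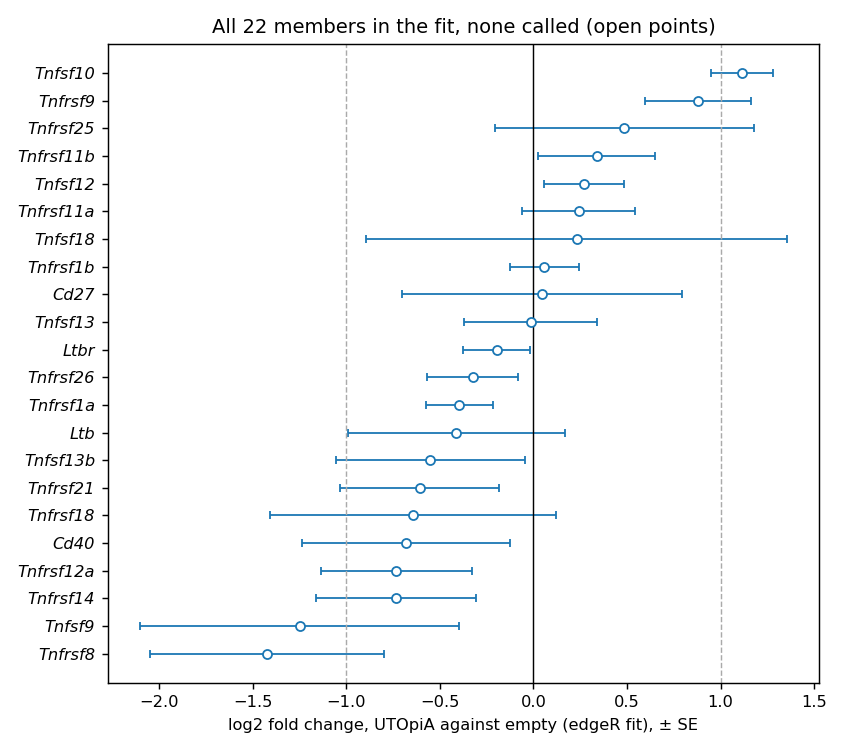
Fitted log2 fold changes of UTOpiA against empty (x axis) with standard errors for the 22 tested members, all drawn open because none was called by edgeR. Tnfsf10 stands highest at 1.11 and Tnfrsf8 lowest at −1.42, and dashed lines mark a fold of 2.

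**Figure D4:**
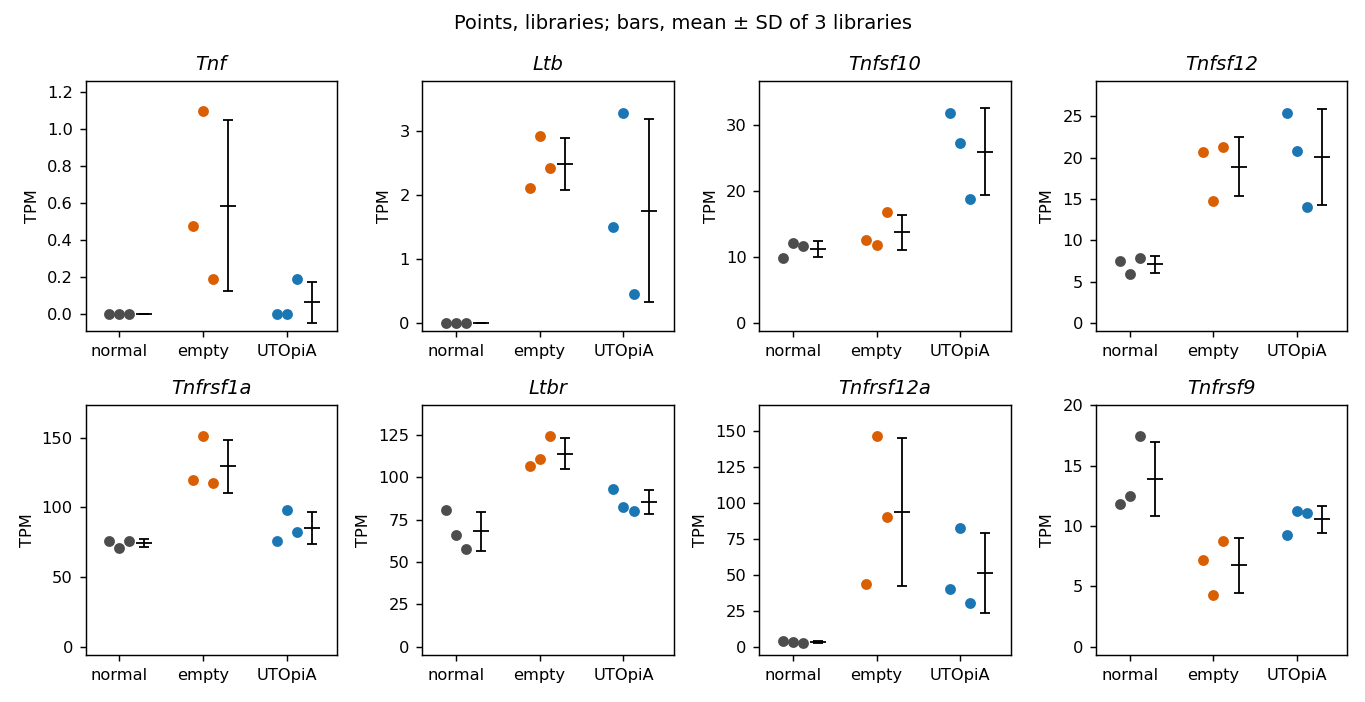
TPM of 8 members in each library (points) with the group mean and SD of 3 libraries (bars), on linear axes. Tnfsf10 is highest in the UTOpiA group, Tnfrsf9 is lowest in the empty group, and Tnf is above 0 TPM in all 3 empty libraries and in 1 UTOpiA library.

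Related genes outside the symbol rule were described with the same fit. Of 8 such superfamily genes, 3 entered it. Relt, an orphan receptor, was called higher in empty (2.83 ± 0.59, adjusted p = 0.00371) and UTOpiA livers (2.27 ± 0.59, adjusted p = 0.0139). Edar, the ectodysplasin receptor, was called lower in both (−3.55 ± 0.58, adjusted p = 0.00129, and −2.05 ± 0.54, adjusted p = 0.0152). Fas, the receptor of Fas ligand, was called higher in UTOpiA against normal (1.18, adjusted p = 0.00548) and was under the fold threshold in empty against normal (0.68, adjusted p = 0.0439).

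Of 21 intracellular adaptors and ubiquitin ligases, 2 were called higher in empty livers, against 20.7% of all genes, Birc3 (cIAP2, itself a target of NF-κB; 3.63 ± 0.55, adjusted p = 0.000994) and Map3k14 (the NF-κB inducing kinase; 1.05 ± 0.25, adjusted p = 0.00747), and 1, Birc3, in UTOpiA livers (2.06 ± 0.52, adjusted p = 0.0139), against 18.2% of all genes. In each comparison 6 had an adjusted p under 0.05 at any fold. The list's median log2 fold change was 0.36 and 0.19. Among 6 shedding proteases and partners, 4 were called higher in empty livers, led by Rhbdf2 (2.72), a partner of the TNF-cleaving protease ADAM17, and 2 in UTOpiA livers. Adam17 itself had 0.91 ± 0.17 (adjusted p = 0.00206), under the fold threshold.

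All 19 tested TNF target genes were called higher in empty livers, with a median log2 fold change of 3.59, and 12 in UTOpiA livers, with a median of 2.35, against 20.7% and 18.2% of all genes called higher. Their summed TPM was 218 to 254 in normal, 1933 to 4937 in empty and 480 to 1059 in UTOpiA livers. Without Sod2, a mitochondrial antioxidant enzyme at 1237 TPM in empty 1, the sums of the other tested targets were 110 to 141, 696 to 4575 and 321 to 701 TPM, and the empty and UTOpiA ranges overlapped. Without Cxcl1, a neutrophil chemokine, they were 217 to 253, 1826 to 3243 and 458 to 1035 TPM, and those ranges stayed apart. Between UTOpiA and empty 0 of the 19 were called by edgeR, with a median of −1.27 and 11 genes at an unadjusted p under 0.05, which 10.3% of all genes had. The empty library 2 was highest for Cxcl1, at 1685 TPM against 75.4 and 110 in the other empty livers, and it also had the highest Tnf and Tnfrsf12a. Tnfaip3 was 183 TPM in empty 2, against 23.6 and 24.1 in the other empty livers and 9.98 to 25.0 in UTOpiA livers. Sod2 went the other way, at 353 TPM in empty 2 against 1237 and 1103. The targets' median and counts above include empty 2, and values without it are not given. Without empty 2, 13 members were called higher in empty against normal, and 1 lower. The share of all genes called in that fit is not given, so this count is not read as a result about the members.

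Markers of several cell types moved with the members. Of 9 tested Kupffer cell and macrophage markers, 7 were called higher in empty and 6 in UTOpiA livers, again against 20.7% and 18.2% of all genes. Clec4f and Vsig4, which mark resident Kupffer cells, were not called (log2 fold changes of −0.85 and 0.45 in empty, −0.74 and 0.66 in UTOpiA livers). Clec4f was uneven, at 32.7, 228 and 14.3 TPM in empty livers, with a standard error of 0.97. Marco of the same list was called higher in both (1.23 and 1.43). Cd163 was called higher in empty livers (1.58) and not in UTOpiA livers (1.02). The list summed to 358 to 427 TPM in normal, 1207 to 1676 in empty and 639 to 1513 in UTOpiA livers. All 6 tested neutrophil markers were called higher in both, with sums of 3.0 to 6.2, 191 to 1119 and 177 to 516 TPM. Cxcr2, at 0 counts in every normal library, and Mmp8, at 0, 0.0964 and 0 TPM there, entered the fit through ACLF libraries. Their calls thus rest on the groups in which they were high. Mpo and Elane were also at 0 counts in normal livers and were not tested. Other target and marker genes near 0 in normal livers carry the same limit.

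T and NK cell markers were called higher in 5 and 7 of 8 (sums of 13.7 to 15.6, 67.3 to 101 and 36.0 to 105 TPM). Most of these sums was Cd4, at 10.6 to 13.5, 41.7 to 82.4 and 22.7 to 85.4 TPM. Cholangiocyte markers were called higher in 8 and 8 of 9 (25.7 to 35.9, 353 to 725 and 151 to 470 TPM). Stellate cell and fibroblast markers were called higher in 8 and 8 of 9 (113 to 124, 992 to 1241 and 580 to 1267 TPM). Endothelial markers had 1 higher and 1 lower of 9 in each comparison. Hepatocyte markers had 1 higher in both and 5 and 3 lower of 10. Over all genes tested, 20.7% and 18.2% were called higher and 11.1% and 6.81% lower in empty and UTOpiA livers. Between UTOpiA and empty, 0 markers of any list were called. The part of these cell types in the members' changes was not tested.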

How the data were processed

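Livers of 9 rats were profiled by bulk RNA-seq. The deposited tables hold featureCounts read counts and TPM per gene, made by the authors from HISAT2 alignments. The methods name Cutadapt 1.9.1, HISAT2 2.0.1, featureCounts 2.6.0 and GRCm38, a mouse build, whereas the submitters' processing notes name Trimmomatic and rn6. The tables list rat Ensembl genes, and the strand setting is not given in the sources used here. Counts were tested with edgeR 4.0.16 (filterByExpr, TMM, robust quasi-likelihood, 3 groups in 1 fit), checked on simulated data. Genes were called at an adjusted p under 0.05 and a fold above 2. DESeq2 1.42.0 and limma 3.58.1, the latter on log2 TPM after adding a pseudocount of 1 or 0.1 and keeping genes of mean TPM at or above 1, gave alternatives. Single values were compared by exact permutation. Ratios with 1 to 3 normal counts carry 95% intervals. Replicate numbers are the labels' own. The correlations of same-numbered libraries' deviations ran from −0.183 to 0.064. Deviations from means of 3 libraries cannot decide whether a number stands for a shared day or batch. The members and lists were chosen with earlier results of these data known. Values in every library were given for Tnf, for called members, for members with an unadjusted p under 0.05 between UTOpiA and empty, and for partners of listed ligand and receptor pairs. Other members were given by range or count, and at most 3 called genes were named per related list.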

Additional observations from a re-analysis of the deposited data

How the results depend on the processing

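Counts of called members stayed within 1.5 times of the reported ones except in 7 cases. In empty against normal, limma on log2(TPM + 1) called 0 members lower, with and without its filter, in place of 1. In UTOpiA against normal, 7 members were called higher when only the 6 libraries compared entered the fit, and 7 to 11 when 1 library was left out; the lowest came without normal replicate 1, which lost Tnfsf13b, Tnfrsf8, Tnfrsf18 and Tnfsf9. In UTOpiA against empty, DESeq2 called 1 member higher, and leaving out 1 library gave 0 to 1 with edgeR (1 without UTOpiA replicate 2) and 0 to 1 with DESeq2 (0 without UTOpiA replicate 1). The cause was not tested. A fit with the replicate block called 12 members higher and 1 lower in empty against normal, and 12 and 0 in UTOpiA against normal. In UTOpiA against empty it called 0. The labels do not say that a number stands for a shared animal or day.

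Of 956 fold changes of single members under an alternative, 34 had the other sign, all in comparisons in which the member was not called. Apart from Tnfsf10, these leave out the DESeq2 fits without 1 library, which bring the total to 46; their 12 values of the other sign, in UTOpiA against empty, ran from −0.62 to 0.26. Under limma on log2(TPM + 1) with and without its filter, on log2(TPM + 0.1), and with library totals alone, the values were 0.26, 0.26, 0.28 and 0.33 for Tnfsf10 in empty against normal, 0.19, 0.19, 0.19 and 0.24 for Tnfrsf1a in UTOpiA against normal, and −0.14, −0.14, −0.14 and −0.12 for Tnfrsf1b in UTOpiA against empty. Cd27 in UTOpiA against empty was −0.089 with limma without its filter and −0.19 with library totals alone. The replicate block gave −0.041 for Tnfrsf11b in empty against normal.

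Leaving out 1 library at a time gave −0.14 to 0.22 for Tnfrsf11b in empty against normal. In UTOpiA against normal it gave −0.00024 to 0.67 for Tnfsf13, −0.091 to 0.17 for Ltbr and −1.26 to 0.0042 for Tnfrsf25. In UTOpiA against empty it gave −0.40 to 0.27 for Tnfsf13, −0.0050 to 0.10 for Tnfrsf1b, −0.13 to 0.97 for Tnfrsf25, −0.32 to 2.34 for Tnfsf18, −0.62 to 0.48 for Cd27 and −1.72 to 0.18 for Tnfsf9. A count of 0 allows up to 3 counts in a library, and 13 members were too low in counts for the fit.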
